A study of Mus musculus with 4 samples.

Results

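The ErbB receptors and the growth factors of the EGF family that bind them were followed in embryonic mouse ureters whose genotype, ΔNp63-cKO, targets the ΔN form of p63. The members are 4 receptors (Egfr, Erbb2, Erbb3 and Erbb4) and 6 ligands (Areg, Ereg, Hbegf, Tgfa, Btc and Nrg1), taken as every array probe whose annotated gene name is one of these 10 genes, out of 29987 named on the array. They were read by 13 of the 39429 gene probes. Of these, 9 probes of 7 genes were bright enough to be kept, and these 7 were among the 21501 genes tested. Areg, Ereg and Erbb4 had no kept probe.

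Total RNA of ureters from NMRI embryos at E15.5 was compared between 2 genotypes on 4 arrays, which asks what this genotype changes in the gene expression of the organ. The cKO embryos carried Pax2-cre/+ and Trp63(dN-flox/dN-flox). The control embryos carried Trp63(dN-flox/?), where the state of the other allele is not given and no cre is listed. Each array paired 1 cKO RNA with 1 sex-matched control RNA in the other dye. Replicates 1 and 2 were female, and replicates 3 and 4 were male. The cKO RNA was in the red dye, AlexaFluor647, in replicates 1 and 3, and in the green dye, AlexaFluor555, in replicates 2 and 4. Both groups carried at least 1 floxed allele, and Pax2-cre was listed for the cKO embryos alone, so an effect of the cre itself cannot be told apart from that of the deletion. Pax2-cre is known to act in the lineage of the Wolffian duct, from which the ureter epithelium arises. The labels do not say whether an RNA came from 1 embryo or from several, so the p-values measure the spread between these RNAs only.

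ErbB receptors are receptor tyrosine kinases that act as dimers. EGFR binds amphiregulin, epiregulin, HB-EGF, TGF-alpha and betacellulin, whereas ERBB3 and ERBB4 bind neuregulins, and ERBB4 also binds some of the EGFR ligands. ERBB2 has no known soluble ligand and serves as a partner, and ERBB3 has little kinase activity of its own and signals through that partner. The ligands are made as membrane-anchored precursors that ADAM proteases release. EGFR signalling is known to drive proliferation and wound closure of cultured urothelial cells, and p63 is the transcription factor that marks the basal layer of stratified epithelia.

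All array probes were 60 bases long, and 4 of the members' probes are shown here. They are the tested probes of Erbb3 and Nrg1 and the pair of Egfr probes that were kept beside the brightest, tested one. The array design lists this Egfr pair under the transcript NM_007912, a short form of the receptor, whereas the brightest Egfr probe is listed under NM_207655, the full-length form. Capitals mark a stop codon at bases 58 to 60, the last of the probe, in a frame with no earlier stop. The Egfr probe written all in lower case holds no such codon. Which forms of Egfr each probe matches was not analysed here.
Egfr A_55_P1956863 (mm9, chr11:16783556-16783615, plus strand): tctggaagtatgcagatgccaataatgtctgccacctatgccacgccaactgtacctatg
Egfr A_55_P1956862 (mm9, chr11:16787172-16787231, plus strand): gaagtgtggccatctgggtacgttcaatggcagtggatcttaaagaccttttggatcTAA
Erbb3 A_55_P2119897 (mm9, chr10:128006424-128006483, minus strand): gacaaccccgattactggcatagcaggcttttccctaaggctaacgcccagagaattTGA
Nrg1 A_55_P1985433 (mm9, chr8:32928500-32928559, minus strand): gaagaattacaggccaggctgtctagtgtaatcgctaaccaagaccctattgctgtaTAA

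No ErbB receptor or ligand passed the test for a difference between cKO and control ureters. Of the 7 tested members, 0 had an adjusted p under 0.05 in limma, against 266 of all 21501 genes (1.24%), of which 153 were lower (0.712%) and 113 higher (0.526%). Without adjustment, at p under 0.05, Hbegf and Tgfa were higher (2 of 7 members, against 3.73% of all genes) and Nrg1 was lower (1 of 7, against 4.31%), together 3 of 7 against 8.04%. The same 3 members had a log2 ratio of the same sign on all 4 arrays, as did 15.3% of all genes (7.69% higher, 7.66% lower). Hbegf was the member nearest to the threshold, with an adjusted p of 0.0629, and its 4 cKO values lay above its 4 control values. In whole-ureter RNA, fewer cells of a type and less RNA per cell cannot be told apart. A log2 ratio is cKO over control, errors are SDs over the 4 arrays, and a level is the log2 of an RNA's normalised intensity for a probe. Intervals are the 95% intervals of the limma fit, and adjusted p-values are those of limma, with Benjamini-Hochberg adjustment over every tested gene. The 4 arrays limit the precision.

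The arrays were alike in signal. The share of gene spots well above background lay between 74.9% and 77.0% in green and between 71.8% and 73.2% in red, and no spot was saturated. Across 21500 genes, the log2 ratios of the arrays were least alike between replicates 2 and 4 (Pearson r = -0.06, Spearman rho = -0.315) and most alike between replicates 2 and 3 (Pearson r = 0.62). Leaving out replicates 1 to 4 in turn gave 361, 939, 283 and 1608 changed genes. Trp63 itself was lower in cKO at 2 of its 4 probes by the same test over every kept probe, which calls 1.01% of probes. The brightest probe had levels of 10.59, 10.72, 10.86 and 10.59 in cKO and 11.98, 11.91, 12.17 and 12.20 in control (log2 ratio -1.37 ± 0.18, adjusted p = 0.00323 in the fit of genes). The other 3 probes had log2 ratios of -1.26 ± 0.36, -0.81 ± 0.34 and -0.02 ± 0.16 (SD, n = 4 each), and where they lie relative to the floxed exon was not analysed here. Markers of luminal urothelium (13 of 13), of ureter mesenchyme (10 of 10) and of smooth muscle (8 of 8) passed the filter on dim probes, so RNA of each of these ureter tissues was present.

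**Figure D1:**
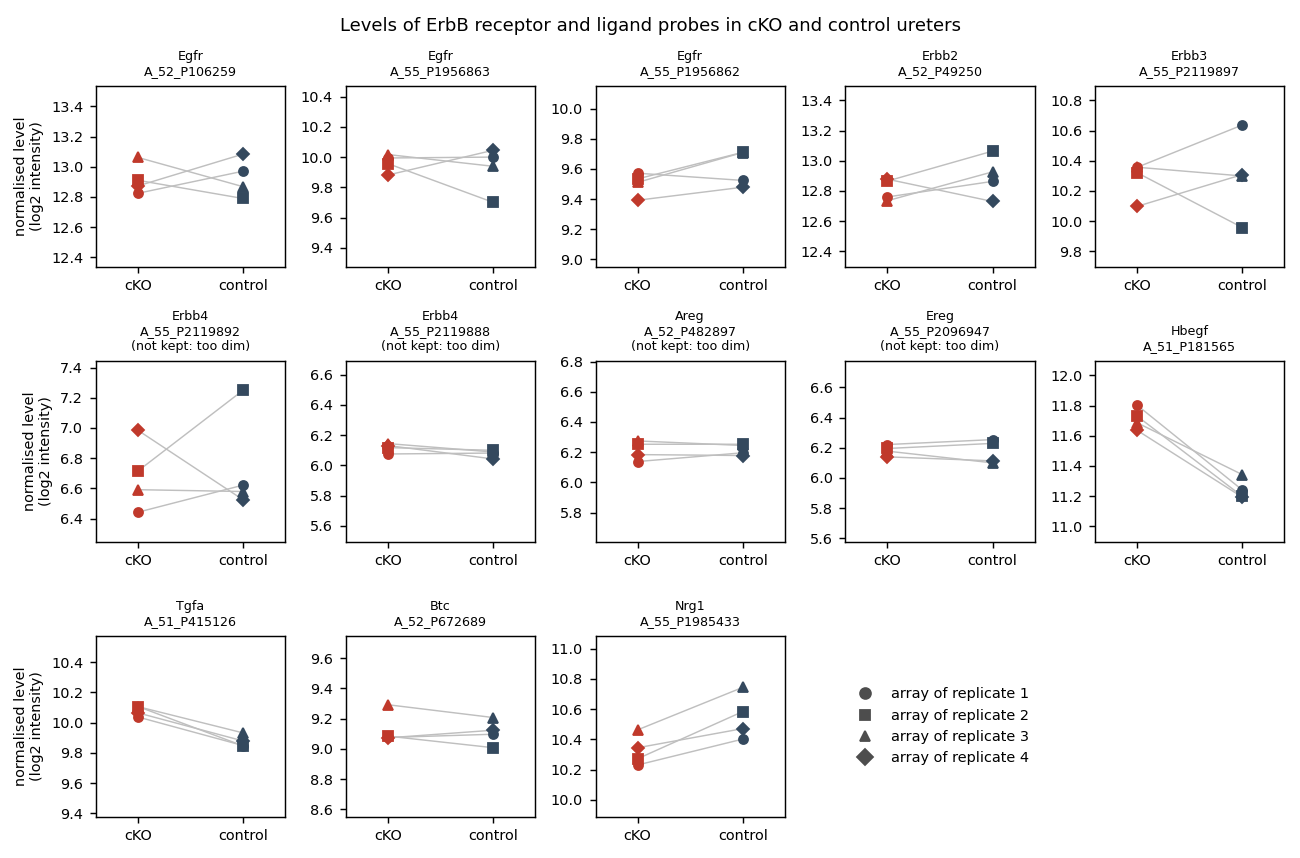
Normalised levels (log2 intensity, y axis) of all 13 probes of the 10 members, with the 4 cKO RNAs left of the 4 control RNAs in each panel and a grey line joining the RNAs of an array. All axes span the same number of log2 units, and only Hbegf and Tgfa have cKO levels that are all above their control levels, whereas the dim Areg and Ereg probes lie between 6.10 and 6.27 in both groups.

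Egfr, the receptor for most of the EGF-like ligands, did not differ between the genotypes beyond the spread. Its brightest probe (A_52_P106259, mm9, chromosome 11, bases 16813815 to 16813874, plus strand) had levels of 12.82, 12.91, 13.06 and 12.87 in cKO ureters, against 12.97, 12.79, 12.87 and 13.08 in control ureters. The values interleaved, with cKO above control on 2 of 4 arrays. The log2 ratio was -0.01 ± 0.20 (SD, n = 4, adjusted p = 1.00), and the interval ran between 1.19-fold lower and 1.17-fold higher in cKO. The Egfr probes printed above, listed under the short form, stood on either side of that value. A_55_P1956863 had a log2 ratio of 0.04 ± 0.18, and A_55_P1956862, which ends in the stop codon, had -0.10 ± 0.11 (SD, n = 4 each). On A_55_P1956862 cKO was below control on 3 of 4 arrays, with an unadjusted limma p of 0.247. None of the 3 Egfr probes passed the test over every kept probe. Leaving out replicate 1 or replicate 4, or centring arrays on the median in place of loess, turned the sign of the Egfr ratio (0.07, 0.07 and 0.05).

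Erbb2, the partner receptor, had levels of 12.76, 12.87, 12.74 and 12.88 in cKO ureters, against 12.86, 13.06, 12.93 and 12.73 in control ureters (A_52_P49250, chromosome 11, bases 98298103 to 98298162, plus strand). It was below control on 3 of 4 arrays and above it in replicate 4, and the groups overlapped. The log2 ratio was -0.09 ± 0.16 (SD, n = 4, adjusted p = 1.00), with an interval between 1.23-fold lower and 1.09-fold higher. Without replicate 2 the ratio was 0.000159.

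Erbb3, the neuregulin receptor of glial and epithelial cells, varied most among the tested members. Its levels at the probe printed above were 10.36, 10.32, 10.36 and 10.10 in cKO ureters, against 10.64, 9.96, 10.30 and 10.31 in control ureters. Replicate 4 stood low among the cKO RNAs, and among the control RNAs replicate 1 was high and replicate 2 low. The 4 ratios were -0.28, 0.36, 0.06 and -0.21, a mean of -0.02 ± 0.29 (SD, n = 4, adjusted p = 1.00), and the interval ran between 1.24-fold lower and 1.21-fold higher. The sign of the mean turned under 4 of 15 alternative settings, with values of 0.03 under median centring, 0.00210 in the deposited value table, 0.07 without replicate 1 and 0.13 without replicate 4. Of 12 markers of Schwann cells and neurons, 0 passed the test. Without adjustment 1 was lower and 0 were higher at p under 0.05, against 4.31% and 3.73% of all genes. The median log2 ratio of the 12 markers was -0.13 over the 4 arrays, and -0.11, -0.34, -0.16 and 0.08 on replicates 1 to 4. Their summed intensity ranged from 42604 to 54766 in cKO and from 46364 to 57235 in control, and all 12 were above the filter. Their part in the Erbb3 values was not tested.

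Erbb4, the other neuregulin receptor, could not be tested. The probe A_55_P2119888 was well above background on 0 of 4 arrays in either genotype, with levels between 6.08 and 6.14 in cKO and between 6.04 and 6.10 in control. The probe A_55_P2119892 was well above background on 3 of 4 arrays in each genotype, which missed the filter of 4. Its log2 ratios of -0.18, -0.53, 0.01 and 0.46 pointed both ways, and the control RNA of replicate 2 was the highest at a level of 7.25.

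Among the EGFR ligands, HB-EGF stood apart from the other members. The transcript Hbegf (A_51_P181565, chromosome 18, bases 36664738 to 36664797, minus strand) had levels of 11.80, 11.73, 11.69 and 11.64 in cKO ureters, against 11.24, 11.20, 11.34 and 11.19 in control ureters. The lowest cKO value lay above the highest control value, and cKO was the higher RNA on all 4 arrays, female and male, in both dye orientations. The log2 ratios were 0.56, 0.53, 0.34 and 0.44, a mean of 0.47 ± 0.10 (SD, n = 4) or 1.38-fold, with an interval from 1.21-fold to 1.58-fold. The adjusted p was 0.0629 among genes and 0.0699 among all kept probes, so the difference was not called.

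The size of the Hbegf ratio hardly depended on the processing, but its call did. Over 15 alternative settings the log2 ratio lay between 0.42 and 0.53 and the adjusted p between 0.00729 and 0.432. It passed the threshold in 6 of them, which called between 1.14% (median centring) and 7.48% (without replicate 4) of all genes. These were median centring (adjusted p = 0.0467), no dye term (0.0157), an added cKO-by-sex term (0.0238), the channels as 8 separate RNAs without the array as a block (0.00833), and the fits that left out replicate 2 (0.0134) or replicate 4 (0.00729). Leaving out replicate 1 gave an adjusted p of 0.432 and leaving out replicate 3 gave 0.131, and in both of these fits limma gave all genes a common variance (SE 0.171). It did so too in the fit with the cKO-by-sex term (SE 0.135), where Hbegf passed. The fits without replicate 2 or replicate 4 gave Hbegf the same SE (0.0822). In both, the residual came only from the difference of replicates 1 and 3, which share a dye orientation, so these passes share an error estimate. In the deposited value table the ratio was 0.47 with an adjusted p of 0.303.

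**Figure D2:**
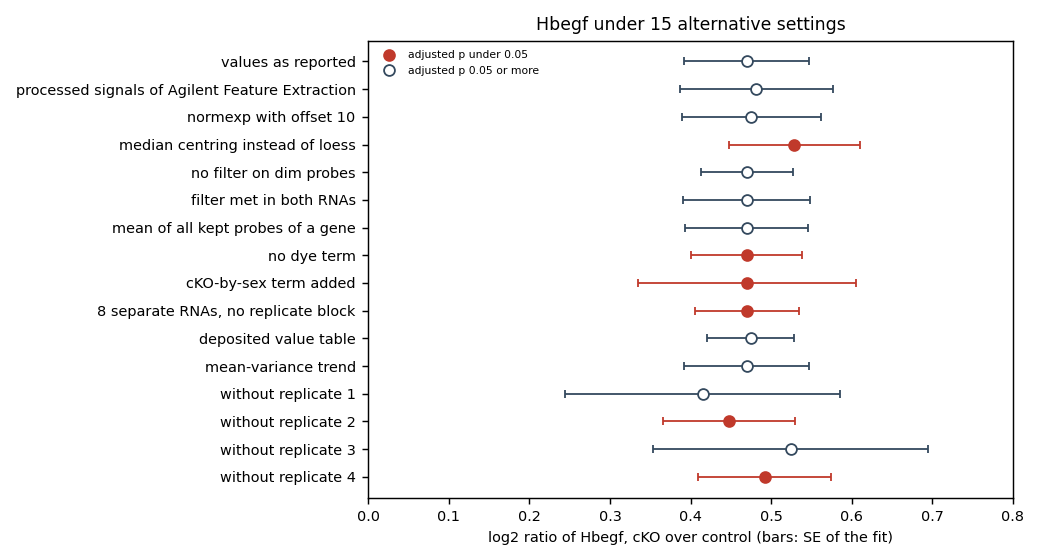
Log2 ratio of Hbegf, cKO over control (x axis, bars are SEs of the limma fit), as reported and under 15 alternative settings listed down the y axis. Filled red points have an adjusted p under 0.05, and the ratio stays between 0.42 and 0.53 while 6 of the 15 settings pass.

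TGF-alpha showed a smaller and very even difference. Tgfa (A_51_P415126, chromosome 6, bases 86224838 to 86224897, plus strand) had levels of 10.04, 10.11, 10.11 and 10.07 in cKO ureters, against 9.85, 9.85, 9.93 and 9.88 in control ureters. The groups did not overlap, which was so, with cKO higher, for 2 of the 7 tested members (Hbegf and Tgfa) and for 3.05% of all genes, or 6.38% in either direction. The log2 ratio was 0.20 ± 0.04 (SD, n = 4), or 1.15-fold, with an interval from 1.02-fold to 1.30-fold. The adjusted p was 0.475. Over the 15 alternatives the ratio lay between 0.18 and 0.25 and the lowest adjusted p was 0.111.

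Betacellulin, which binds both EGFR and ERBB4, gave levels of 9.08, 9.08, 9.29 and 9.07 in cKO ureters and 9.10, 9.01, 9.21 and 9.12 in control ureters (Btc, A_52_P672689, chromosome 5, bases 91786948 to 91787007, minus strand). Replicate 3, male, held the highest value of both genotypes. The log2 ratio was 0.02 ± 0.07 (SD, n = 4, adjusted p = 1.00), with an interval between 1.12-fold lower and 1.15-fold higher. Its sign turned without replicate 2 (-0.00940) and without replicate 3 (-0.00417).

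The remaining EGFR ligands, amphiregulin and epiregulin, were not well above background on any array in either genotype. Levels at the Areg probe lay between 6.14 and 6.27 in cKO and between 6.18 and 6.25 in control. Those at the Ereg probe lay between 6.14 and 6.22 in cKO and between 6.10 and 6.25 in control. No fold is given for them, and a difference was not detectable at this signal. In the deposited value table both genes, like Erbb4 A_55_P2119888, are listed at 0 on all 4 arrays.

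Neuregulin-1, the ligand of ERBB3 and ERBB4, was the only member with a lower ratio on every array. At the Nrg1 probe printed above the levels were 10.23, 10.27, 10.46 and 10.34 in cKO ureters, against 10.40, 10.58, 10.74 and 10.47 in control ureters. Within each array cKO was the lower RNA, but across arrays the groups overlapped, since the male pair of replicate 3 was high in both genotypes. The log2 ratios were -0.17, -0.31, -0.28 and -0.13, and averaged -0.22 ± 0.09 (SD, n = 4), which is 1.17-fold lower in cKO. The interval ran from 1.33-fold to 1.03-fold lower. The unadjusted p was 0.0264 and the adjusted p 0.461. The ratio kept its direction in all 15 alternatives, between -0.27 and -0.17, and the adjusted p was never under 0.0678.

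**Figure D3:**
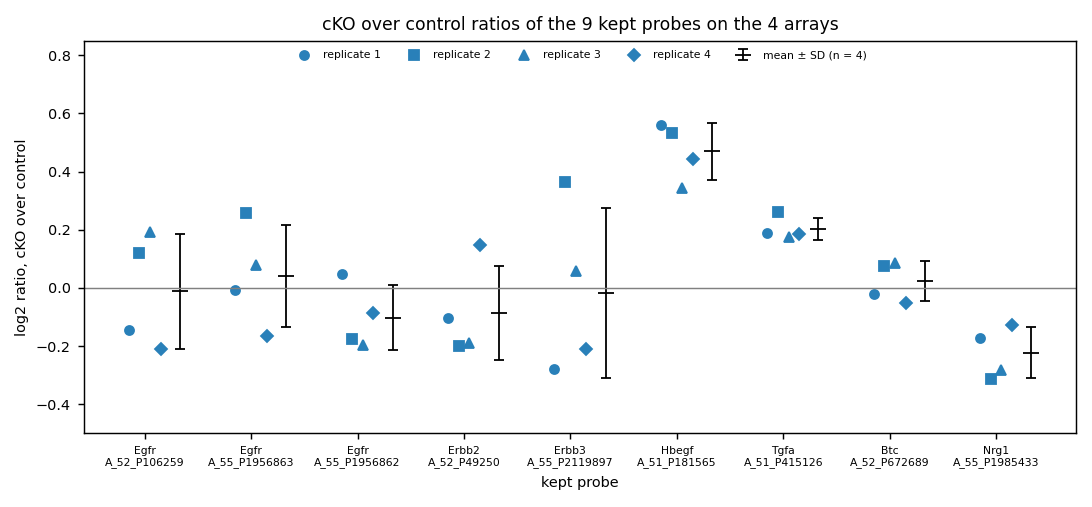
Log2 ratios of cKO over control (y axis) for the 9 kept probes of 7 members, 1 point per array, with the mean ± SD (n = 4) beside them. Hbegf (0.34 to 0.56) and Tgfa (0.17 to 0.26) lie above 0 on every array and Nrg1 (-0.31 to -0.13) below it, and the other 6 probes spread across 0.

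No member passed the test for an effect of dye or of sex. The probe-specific dye effect, red over green, lay between -0.09 (Erbb3) and 0.03 (Egfr) on the log2 scale, with 0 of 7 members past the threshold (each adjusted p = 1.00). The ratio of Hbegf averaged 0.55 on the 2 female arrays and 0.39 on the 2 male arrays. The difference of 0.15, female minus male, had an interval from -0.38 to 0.68 and an adjusted p of 1.00. For the other 6 tested members the same difference lay between -0.13 (Erbb2) and 0.12 (Erbb3), also with 0 past the threshold. That test had 1 residual degree of freedom per gene, and limma gave all genes a common variance (SE 0.270), so it could detect large differences only.

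The rest of the pathway gave no changed gene either. Of 66 further genes, covering other ligands, sheddases, inhibitors of the receptors, adaptors and kinases, and ERK feedback and target genes, 64 were tested (Nrg3 and Fosl1 were too dim) and 0 passed, against 1.24% of all genes. Without adjustment, 4 of the 64 were lower and 3 higher at p under 0.05, against 4.31% and 3.73% of all genes. The median log2 ratio of the 64 was 0.02, against -0.000237 over all genes tested.

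Among the other ligands, 0 of 4 passed and their median was -0.03. The smallest p-values were those of Nrg4, a neuregulin of brown fat (0.17 ± 0.15), Epgn, encoding epigen (-0.12 ± 0.19), and Nrg2 (-0.08 ± 0.11; SD, n = 4 each). Egf itself had a log2 ratio of 0.03 ± 0.15. Each of these adjusted p-values was 0.803 or higher.

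The sheddases release the ligand precursors, and 0 of 7 passed. Rhbdf2, which encodes iRhom2, an escort of the protease ADAM17, had log2 ratios of -0.28, -0.58, -0.54 and -0.02, a mean of -0.36 ± 0.26 (SD, n = 4, adjusted p = 0.386). It was close to 0 in replicate 4, and without that array it passed (-0.49, adjusted p = 0.00811). The fit without replicate 4 called 7.48% of all genes and 3 of the 64 pathway genes (4.69%). Adam17, whose product cleaves HB-EGF, TGF-alpha and amphiregulin, averaged -0.09 ± 0.36 with replicate 4 above 0 and the other 3 below it. Adam9 (0.17 ± 0.24) and Adam10, which cleaves betacellulin and EGF (0.18 ± 0.28), did not pass.

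Of 12 inhibitors of the receptors, such as the ubiquitin ligases Cbl and Cblb, Lrig1 and Errfi1, 0 passed and the median was -0.01. The smallest p-values belonged to Cbl (-0.13 ± 0.24), Cblb (0.07 ± 0.03) and Socs5 (0.10 ± 0.20). Cblb was above 0 on all 4 arrays, between 0.06 and 0.11. Lrig1, a membrane protein that lowers ErbB receptor levels, had -0.07 ± 0.19, and Errfi1, an inhibitor of the EGFR kinase that is itself induced by its signalling, had -0.01 ± 0.16.

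Of 27 adaptors and kinases, 0 passed and the median was 0.01. Hras, the small GTPase, averaged -0.33 ± 0.25 (SD, n = 4, adjusted p = 0.450), with replicate 4 at 0.01 and the other 3 between -0.55 and -0.29. Without replicate 4 it passed (-0.46, adjusted p = 0.00905), in a fit that called 7.48% of all genes. Map2k1, which encodes the ERK kinase MEK1, had 0.21 ± 0.08 and was above 0 on every array, and Pik3r1, a regulatory subunit of PI3-kinase, had -0.20 ± 0.11 and was below 0 on every array, with adjusted p-values of 0.454 and 0.617.

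The ERK feedback and target genes are commonly read as a measure of signalling below the receptors. Of 14 tested, 0 passed, 4 had a negative and 10 a positive mean ratio, and the median was 0.07. Spred2, an inhibitor of RAF activation, had log2 ratios of -0.35, -0.35, -0.23 and -0.65, a mean of -0.39 ± 0.18 (SD, n = 4, adjusted p = 0.140). All 4 cKO RNAs were below their control partners. It passed when replicate 2 was left out (-0.47, adjusted p = 0.00788) and when replicate 4 was (-0.32, adjusted p = 0.0401). Those fits called 4.37% and 7.48% of all genes. Ier3 averaged 0.32 ± 0.28 and the ERK phosphatase gene Dusp4 0.21 ± 0.23, with adjusted p-values of 0.521 and 0.607. The ERK phosphatase gene Dusp6 had 0.15 ± 0.15. The medians of the list by array were -0.02, 0.03, -0.02 and 0.26, with replicate 4 the highest.

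**Figure D4:**
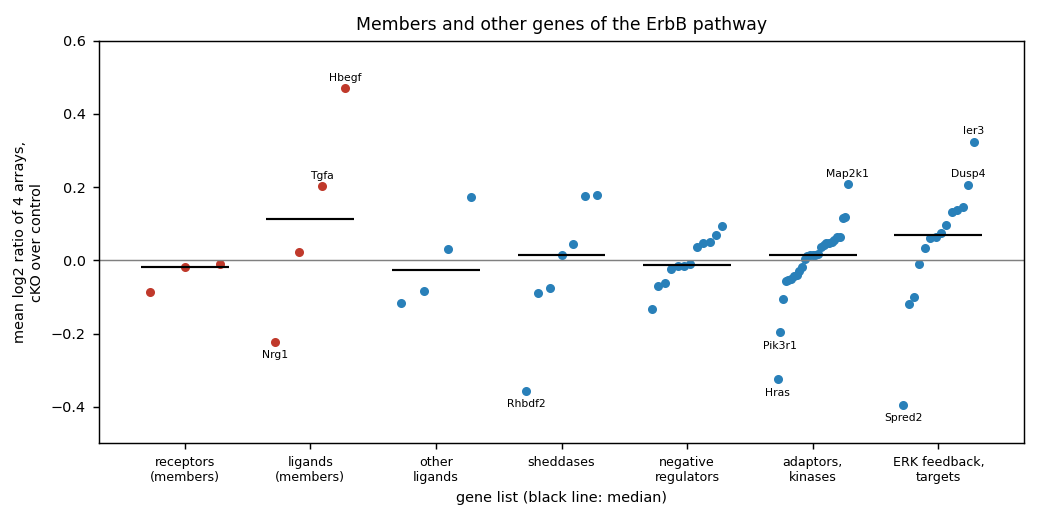
Mean log2 ratio of 4 arrays, cKO over control (y axis), of the 7 tested members (red) and 64 other genes of the pathway (blue), each point a gene and each black line a list's median. Hbegf is the highest point at 0.47 and Spred2 the lowest at -0.39, and 0 of these genes passed the test.

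Hbegf is also an early-response gene of growth factor and stress signalling, so the immediate early genes were set beside it. Of 19 tested, 0 passed, 16 had a positive mean ratio, and without adjustment 2 were lower and 8 higher at p under 0.05, against 4.31% lower and 3.73% higher over all genes. Their medians were -0.05, 0.28, -0.15 and 0.40 on replicates 1 to 4, low where the cKO RNA was in red and high where it was in green. Egr1, singled out after its values were seen, showed that pattern. Its log2 ratios were 0.21, 1.61, -0.05 and 1.05 (mean 0.70 ± 0.76, SD, n = 4). Its adjusted p was 0.0568 in the limma fit, which takes such a split out as a dye effect (SE 0.113). That p therefore does not measure the SD of 0.76. Fosb, likewise singled out, had -0.36, 2.18, -1.10 and 1.43. Egr1, Fosb, Fos, Nr4a1 and Ccn1 count among the 8 higher, although their ratios pointed both ways. Whether the split came from the dyes or from the RNAs was not tested. Hbegf had no such split, with 0.56 and 0.34 where cKO was in red and 0.53 and 0.44 where it was in green. Its dye effect was -0.02 ± 0.08 (SE of the fit). Of the 19 early genes, 3 were likewise above 0 on all 4 arrays, against 7.69% of all genes. These were Egr2 with 0.43, 0.28, 0.24 and 0.29, Klf4 with 0.06, 0.50, 0.39 and 0.27, and Zfp36 with 0.32, 0.28, 0.01 and 0.54 on replicates 1 to 4. The part of an early response in the Hbegf values was not tested.

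**Figure D5:**
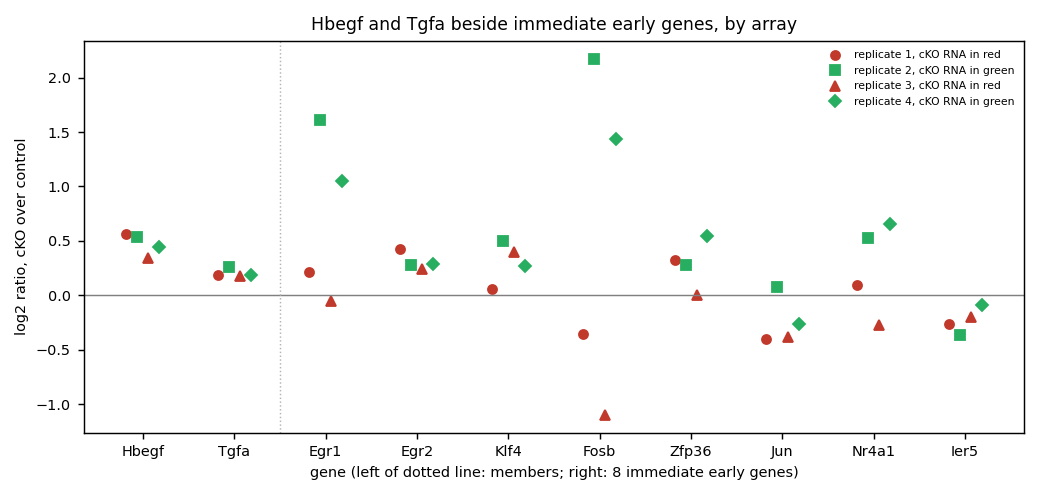
Log2 ratios of cKO over control (y axis) on each array for Hbegf and Tgfa, left of the dotted line, and for the 8 immediate early genes with the smallest p, with red symbols for arrays with cKO RNA in red and green symbols for those with cKO RNA in green. The colours separate for Egr1, Fosb, Jun and Nr4a1, whereas the 4 Hbegf values lie between 0.34 and 0.56 whatever the dye.

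Markers of some cell types of the ureter did change. Of 10 markers of basal urothelium, Trp63 among them, 8 were lower (against 0.712% of all genes) and 0 higher, with a median log2 ratio of -1.28. The list, which includes the targeted gene, was chosen with earlier results of these data known, so the count describes these markers only. Their summed intensity ranged from 34986 to 40884 in cKO and from 47730 to 63555 in control, and all 10 passed the filter. Intensities were summed without the log, so the brightest genes of a list weigh most. Itga6, the brightest of the 10 (mean control level 14.88), was not called (log2 ratio -0.14 ± 0.29). At its tested probe, the interval of Egfr ran between 1.19-fold lower and 1.17-fold higher, and that of Erbb2 between 1.23-fold lower and 1.09-fold higher. In the fit of every kept probe, the interval ran from -0.30 to 0.09 on the log2 scale at Egfr A_55_P1956862. At Egfr A_55_P1956863 it ran from -0.19 to 0.27. Which cells the RNA of these receptors came from was not measured, and the part of basal cells in their values was not tested. Of 13 markers of luminal urothelium, some of which other epithelial cells also express, 2 were lower and 2 higher, with a median of 0.01. Over all genes, 0.712% were lower and 0.526% higher. Of 12 general epithelial markers 0 passed. Without adjustment 4 were lower and 1 was higher at p under 0.05, against 4.31% and 3.73% of all genes. Of the 12 means, 11 were negative, with a median of -0.13. The epithelial sums ranged from 153907 to 178129 in cKO and from 176451 to 201952 in control.

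Ureter mesenchyme (0 of 10 passed, median 0.07), smooth muscle (0 of 8, 0.02), endothelium (0 of 6, 0.14) and macrophages (0 of 8, -0.18) gave no changed marker. The 6 endothelial means were all positive, and their summed intensity ranged from 69124 to 72492 in cKO and from 59582 to 67376 in control. Of 10 skeletal muscle markers 2 were lower, against 0.712% of all genes, and 0 higher. Without adjustment 7 were lower and 0 higher at p under 0.05 in limma, against 4.31% and 3.73% of all genes. Their median was -0.36, with sums from 24753 to 32923 in cKO and from 33452 to 37577 in control. Of 9 kidney markers, 6 were bright enough (Nphs1, Slc12a1 and Umod were not), and 1, Cubn, was higher, against 0.526% of all genes. The kidney sums ranged from 51937 to 71684 in cKO and from 39883 to 50015 in control. Their brightest gene was Foxd1 (log2 ratio 0.36 ± 0.15, not called), and that of skeletal muscle was Acta1 (-0.12 ± 0.21, not called). For endothelium, skeletal muscle and kidney, as for basal urothelium, the cKO and control sums did not overlap. The same held for the tested ligand members, with sums from 6091 to 6434 in cKO and from 5241 to 5880 in control. The sums of every other list overlapped. Levels of single genes did not overlap in 6.38% of cases. How often sums of further sets of genes do not overlap was not tested. The part of the marker lists in the values of Hbegf, Tgfa and Nrg1 was not tested either.

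Genes whose 4 ratios were most like those of the extreme members were sought among 16036 tested genes with a symbol (names of clones and predicted genes left out), by the root mean square difference over the 4 arrays on the log2 scale. Nearest to Hbegf were Hcar1 (0.0765), a lactate receptor gene, Flvcr2 (0.0816), Vwc2 (0.0843), Fgfbp1 (0.0875), which encodes a carrier of FGFs, and Mgat4a (0.0914). Their mean ratios lay between 0.41 and 0.46, and none of the 5 passed, with adjusted p-values between 0.0616 and 0.115. Nearest to Nrg1 were B3gnt9 (0.0244), Pik3ip1 (0.0319), which encodes an inhibitor of PI3-kinase, Jam2 (0.0356), Ndst1 (0.0388), an enzyme of heparan sulfate synthesis, and Arhgef38 (0.0396). Their means lay between -0.22 and -0.20, with adjusted p-values between 0.454 and 0.602. With 4 arrays, such a likeness describes these ratios only.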

How the data were processed

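Members and gene lists were chosen with earlier results of these data known. The scanner files, as deposited, hold the intensity of each spot (mean signal and local background of both channels, processed signals and quality flags), and Agilent Feature Extraction 10.7.3.1 made them, according to the submitters' processing notes. Per the labels' protocols, 200 ng of total RNA went through 1 T7 round. Per the file headers, probe positions are of build mm9.

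Background correction used normexp (offset 50), loess was run within arrays, and 17 to 33 nonuniform gene spots per array were dropped. Ratios are means over the 4 spots of a probe. The filter asked for a share of at least 0.5 of the spots well above background on all 4 arrays in either RNA, which 28611 probes met. Each gene was read at its kept probe of highest mean intensity. Levels are channel values after loess and Aquantile normalisation. The offset raises dim values, so ratios of dim probes are understated. The RefSeq gene table named 30385 probes through their symbol and 1435 through an accession, and 7609 stayed under the array's name.

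The fit was made in limma 3.58.1 (R 4.3.3, lmFit and eBayes) on log2 ratios, with a cKO coefficient and an intercept for the dye. Each array holds both RNAs of a replicate, so the array is the pair. P-values are two-sided with Benjamini-Hochberg adjustment and a threshold of 0.05. On simulated data (200 genes changed, 10 rounds), the fit recovered 47.6% of genes changed 1.5-fold and 95.2% of those changed 2-fold, with 5.39% false calls. A change of 1.5-fold was thus missed more often than called there, and changes near or under that size could go uncalled. A cKO-by-sex coefficient was added for the test of sex. The 15 alternatives covered background correction, normalisation, filter, probe choice, dye, sex and pairing terms, variance trend, each array left out, and the deposited value table. The value table was deposited as log2 ratios that the authors had centred, each column with a median of 0, by steps not given in the sources used here. Between 32.2% and 32.6% of its values are exactly 0. Its slope was taken against red over green ratios of the processed signals, at bright probes with deposited values other than 0. That slope was between 0.943 and 0.954 where cKO was in red and between -0.956 and -0.950 where cKO was in green. The value table thus runs as cKO over control.

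Named are all members and probes, the 3 pathway genes of each list with the smallest p, the 5 genes most like the lowest and the highest member, and Trp63. Further genes stand as examples of their list.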

Additional observations from a re-analysis of the deposited data

Results flagged for a closer look

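In 3 of 39 groups of 4 values for the members' probes, the extreme value stood apart by more than the 95% critical value of Dixon's ratio (its gap to the nearest value over the group's range). Chance marks about 1 in 20 such groups. The cKO level of Erbb3 in replicate 4, 10.10, was below the other cKO levels of 10.32 to 10.36 (ratio 0.860). The control level of the dim Erbb4 probe A_55_P2119892 in replicate 2, 7.25, was above the other control levels of 6.52 to 6.62 (ratio 0.866). The cKO level of Btc in replicate 3, 9.29, was above the other cKO levels of 9.07 to 9.08 (ratio 0.947).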

How the results depend on the processing

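Under every scaling tried, the median log2 ratio of all genes was at most 0.0301 (median centring). The number of changed members, by 1 probe per gene, was 1 (Hbegf) in place of 0 under median centring, without the dye term, with a cKO-by-sex term and with 8 separate RNAs, where the pairing by array is dropped. Leaving out 1 replicate gave 0 to 1. Over every kept probe it was 1 without the dye term, with the sex term and without the array as a block, and 0 to 1 with a replicate left out. The count of other pathway genes was 0 under every setting with 4 arrays and 0 to 3 with a replicate left out. All genes changed numbered 86 without the filter, 460 without the dye term, 543 with the sex term and 1 in the deposited table, against 266, and 283 to 1608 with a replicate left out. Of 105 member values, 89 kept their direction and side of the threshold, 6 passed it (all Hbegf) and 10 turned sign. The last were Erbb3 at 0.0328 and Egfr at 0.0519 under median centring, Erbb3 at 0.00210 in the deposited table, and values with a replicate left out. There, Erbb3 ranged from -0.161 to 0.126, Egfr from -0.0959 to 0.0742, Erbb2 from -0.173 to 0.000159 and Btc from -0.00940 to 0.0542. The cause was not tested, beyond the smaller number of arrays where a replicate was left out. The sex test called 0 members in all 7 alternatives run. It was not run with replicates left out, probe means, a variance trend or 8 RNAs. Dim signal limits Areg, Ereg and Erbb4.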
